A study of Vaccinium virgatum with 9 samples.

Results

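A set of 79 genes had lower transcript abundance in rabbiteye blueberry fruit after potassium sulfate was given at the young fruit stage, while their mean after potassium at flowering stayed near that of water-treated plants. The set was chosen on measured values. Abundance was expressed as CPM, a gene's reads per 1000000 reads of its library, after scaling with TMM factors, and group means over 3 libraries were compared. A member had a mean of at least 5 CPM in water, a mean after young-fruit potassium at least 1.5-fold below that of both other groups, and a ratio of flowering-stage potassium to water between 0.8 and 1/0.8. The 79 genes are 0.204% of the 38665 genes in the table and 0.529% of the 14945 genes with at least 5 CPM in water. Every contrast between the 3 groups entered this choice, so the levels and fold changes below describe the genes that were selected and no test is built on them.

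The fruit RNA came from rabbiteye blueberry (Vaccinium virgatum, Menditoo × Tifblue), a polyploid shrub grown for its berries, on 7-year-old plants kept singly in pots of a substrate that itself contained potassium. One group received 10 g of potassium fertilizer per plant, as dissolved potassium sulfate, at the young fruit stage, a second received the same dose at flowering, and the third received water. Fruit from the upper layer was taken 90 days after flowering, with 12 to 18 fruits in each replicate and 3 libraries in each group. The labels leave unsaid if replicates were separate plants, so the spread between libraries may be partly technical, and p-values measure that spread alone. Potassium was given together with sulfate in both treated groups, so the ions cannot be told apart. Picking was at 1 age, so the stage of treatment and the time elapsed since it cannot be told apart either.

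Potassium is the main inorganic cation of plant cells, where it carries osmotic pressure, balances the charge of transported anions and activates enzymes, and it supports the loading of sugars into the phloem that feeds growing fruit. Sulfate, its partner in this fertilizer, is the source of sulfur for cysteine and methionine. A blueberry first grows by cell division and later ripens by softening, taking up sugar and laying down anthocyanins, the blue and red pigments of its skin, which the title of the series names as its subject. The count table identifies genes by number only and pairs none with a name or function. Lists for anthocyanin synthesis, potassium and sulfate transport, fruit softening and markers of seed, green tissue, epidermis and vascular tissue could therefore be matched to no gene, the tissue label could not be checked against markers, and no function is given to any of the 79 genes. Members are described by rank, and 4 of them by identifier.

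Total counts per library lay between 15655016 and 18424967, with overlap of the groups. Replicate libraries differed by more than sampling noise, with a chi-square per degree of freedom of 2.62 to 5.79 within groups, so none looked like a repeated deposit. All 79 members passed edgeR's filter on low counts. The lowest count of any member in any library was 22, in a library of young-fruit potassium, and 16 members had under 50 counts in at least 1 library. The highest was 112016 counts. Without gene lengths in the table, CPM values rank genes by their share of reads and do not compare transcript levels between genes.

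The members kept about 1 in 2 of their water-level reads after young-fruit potassium. The ratio of young-fruit potassium to water had a median of 0.51 over the 79 genes, with a middle 50% of 0.46 to 0.58 and a range from 0.34 to 0.66. Relative to flowering-stage potassium the median was 0.55 and the range 0.33 to 0.66. Both upper ends are set by the 1.5-fold limit. The ratio of flowering-stage potassium to water had a median of 0.94, within the limits of 0.8 and 1/0.8. In whole fruit, fewer cells of a type and less RNA per cell cannot be told apart.

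**Figure D1:**
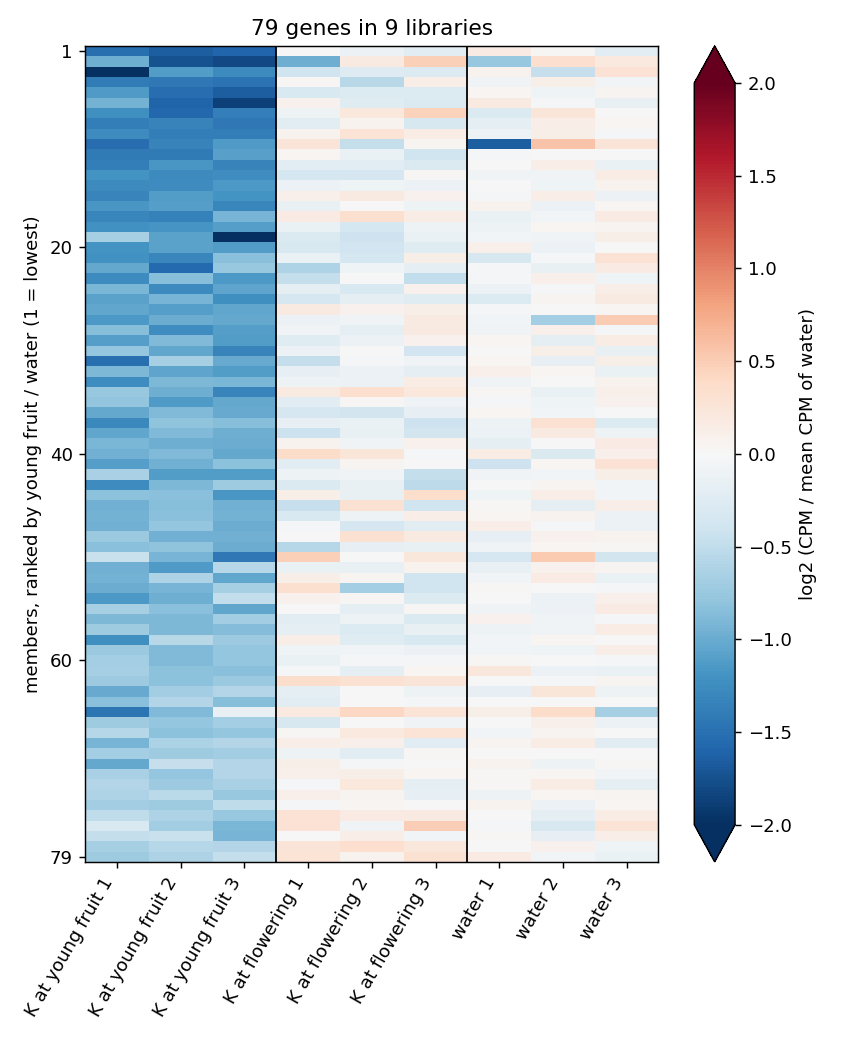
Each row is 1 of the 79 members and each column 1 library; the colour gives log2 of the CPM over the gene's mean CPM in water, and rows are ranked by the ratio of young-fruit potassium to water. The 3 columns of young-fruit potassium are blue throughout almost the whole set, while the 6 columns of flowering-stage potassium and water are pale, apart from single cells such as water replicate 1 in the row ranked 10.

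The decline was shared by the 3 libraries of young-fruit potassium. The median member stood at 51.6, 53.5 and 50.3% of its water mean in young-fruit replicates 1, 2 and 3, at 93.5, 95.4 and 95.8% in the flowering-stage replicates, and at 98.6, 101 and 102% in the water replicates. The lowest of the 3 values was in replicate 1 for 26 members, in replicate 2 for 23 and in replicate 3 for 30. The rule used the mean of these 3 libraries, so low values in each are partly built in. This tally cannot exclude a strong influence of 1 library on single genes. Taken 1 library at a time, 73, 73 and 71 members lay at least 1.5-fold below the water mean in the young-fruit replicates, against 2, 1 and 0 in the flowering-stage replicates and 2, 1 and 1 in the water replicates. In 45 members each of the 3 young-fruit libraries was at least 1.5-fold below both other group means, which the rule makes likely. The share of this pattern over all genes was not counted. Over all genes with at least 5 CPM in water, the shares at least 1.5-fold below the water mean were 17.8, 18.3 and 18.7% in the young-fruit replicates and 16.9, 17.1 and 16.9% in the flowering-stage replicates. In the water replicates, which make up that mean, they were 0.0803, 0.127 and 0.207%.

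In 75 of the 79 genes all 3 young-fruit libraries were below all 6 other libraries, a pattern seen in 7.76% of the 25728 genes tested. The other 4 overlapped with water in 3 cases and with flowering-stage potassium in 1. Taken against 1 group, the young-fruit libraries were below all water libraries in 76 members, beside 28.5% of genes tested, and below all flowering-stage libraries in 78, beside 17% of genes tested. The rule placed the young-fruit mean 1.5-fold below both other means, which makes such separation likely, so nothing is read from these counts. The genes tested also include those under 5 CPM in water. The member ranked 44 by its water level had 3.68, 4.18 and 4.83 CPM after young-fruit potassium, 12.7, 7.60 and 10.9 CPM after flowering-stage potassium, and 3.38, 15.8 and 12.6 CPM in water. Its lowest library of all was therefore water replicate 1. The member ranked 73 had 2.06, 3.09 and 5.14 CPM after young-fruit potassium, against 6.15, 7.32 and 3.57 CPM in water, and young-fruit replicate 3 passed water replicate 3. The member ranked 25 had 21.6, 16.5 and 14.1 CPM against 26.3, 21.4 and 32.4 CPM in water, an overlap of 1 library in each group by a narrow margin. The member ranked 12 had 26.7, 27.7 and 33.6 CPM after young-fruit potassium and 66.7, 33.1 and 40.4 CPM after flowering-stage potassium, with flowering replicate 1 far above the other libraries of its group.

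Across all genes, edgeR's quasi-likelihood test with Benjamini-Hochberg adjustment at 0.05 called 6624 genes lower after young-fruit potassium than in water, 25.7% of those tested, and 2377 genes lower than after flowering-stage potassium, 9.24% of those tested. All 79 members were among the calls of both comparisons, which the rule itself makes likely, and nothing is read from these counts. The median log2 fold change of the members was -0.97 against water, beside -0.02 for all genes tested, and -0.87 against flowering-stage potassium, beside 0.00 for all genes tested. Standard errors of the members' log2 fold changes against water ran from 0.04 to 0.33, smallest for the genes with most reads. Under the limit of 2-fold in place of 1.5-fold, 34 members lay below water, 27 below flowering-stage potassium and 21 below both.

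**Figure D2:**
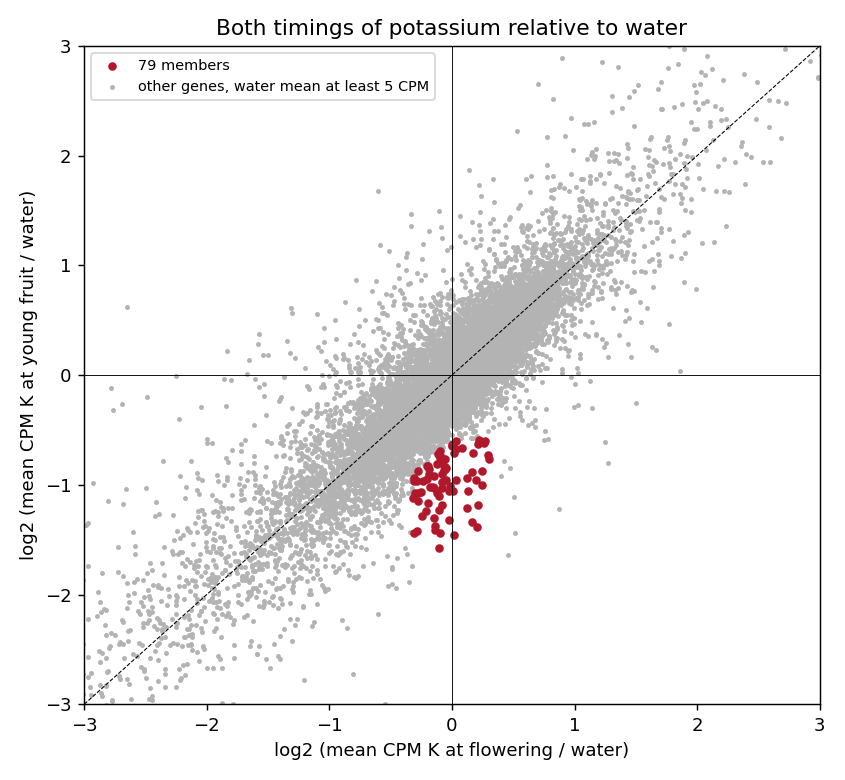
Each point is a gene with at least 5 CPM in water; the x axis is log2 of mean CPM after potassium at flowering over water and the y axis log2 of mean CPM after potassium at young fruit over water, with the dashed line marking equal change (277 genes lie outside the axes). The 79 members, in red, form a narrow column below the line, since the rule bounds them at 0.8 to 1/0.8 on the x axis and at 1.5-fold below water on the y axis, while most grey points follow the line.

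By identifier, the member with the deepest decline against water was Vadar_g17997.v1.2. It had 7.80, 7.08 and 7.37 CPM after young-fruit potassium, 22.2, 20.5 and 18.9 CPM after flowering-stage potassium, and 24.7, 22.5 and 19.1 CPM in water. The young-fruit libraries lay close together and far below the other 6, which overlapped with each other. The log2 fold change was -1.59 ± 0.12 (SE, n = 3 libraries a group) against water and -1.47 ± 0.12 against flowering-stage potassium. Next among genes with the same kind of identifier was Vadar_g18974.v1.2, a gene with few reads. It had 1.37, 2.77 and 2.48 CPM after young-fruit potassium, 4.52, 5.0 and 4.93 CPM after flowering-stage potassium, and 6.27, 4.32 and 7.33 CPM in water. No young-fruit library reached any other library, but the water libraries themselves spread widely, and its log2 fold change of -1.44 ± 0.25 against water is less precise.

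Vadar_g36240.v1.2 and Vadar_g21034.v1.2 declined furthest against flowering-stage potassium among the members with this kind of identifier that had not yet been named. Vadar_g36240.v1.2 had 4.12, 3.99 and 5.32 CPM after young-fruit potassium, 11.4, 12.6 and 11.3 CPM after flowering-stage potassium, and 9.22, 9.81 and 11.4 CPM in water. Its log2 fold change was -1.39 ± 0.15 (SE) against flowering-stage potassium and -1.19 ± 0.16 against water. Both of these genes had a flowering-stage mean slightly above water, though the libraries of those groups overlapped. Vadar_g21034.v1.2 had 30.6, 35.3 and 33.4 CPM after young-fruit potassium, 82.4, 87.0 and 81.0 CPM after flowering-stage potassium, and 75.2, 83.8 and 70.8 CPM in water. With more reads its errors were smaller, and the log2 fold change was -1.33 ± 0.07 (SE) against flowering-stage potassium and -1.22 ± 0.07 against water.

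**Figure D3:**
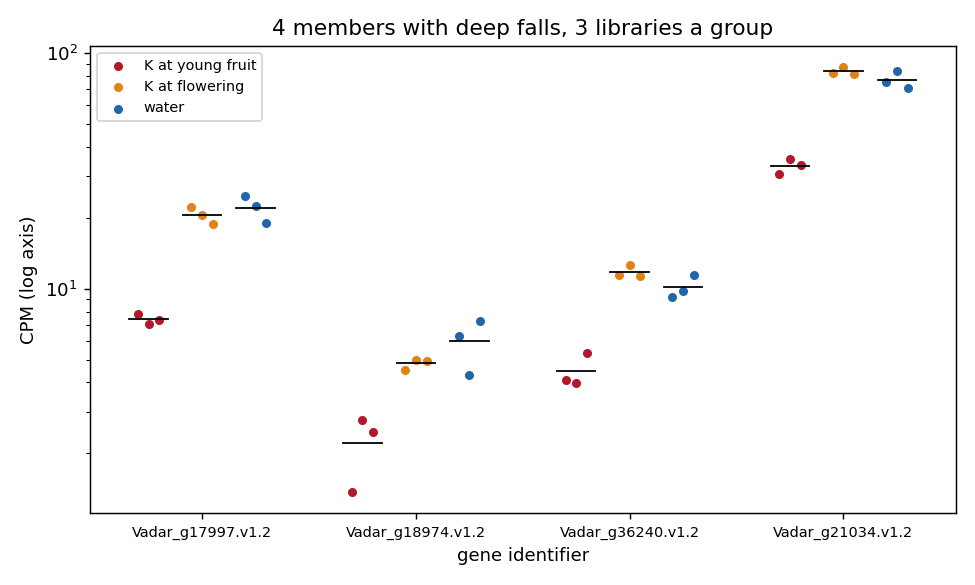
CPM on a log axis for the 4 members named by identifier, with 1 point per library, 3 libraries a group and a bar at each group mean. In each gene the 3 red points of young-fruit potassium lie below all orange points of flowering-stage potassium and all blue points of water, for example at 7.08 to 7.80 CPM in Vadar_g17997.v1.2 against 18.9 CPM or more in the other libraries.

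One member held most of the reads of the set. It had 3374, 3620 and 3580 CPM after young-fruit potassium, 6378, 6736 and 6286 CPM after flowering-stage potassium, and 5341, 5695 and 5018 CPM in water. It was also among the members nearest the limit, at 0.659 of its water mean, and it was the only member among the 100 genes with most reads in water. It held 72.0 ± 0.713% of the members' summed CPM after young-fruit potassium, 71.2 ± 0.720% after flowering-stage potassium and 66.1 ± 1.75% in water (SD, n = 3 each). The summed CPM of all 79 genes was 4893 ± 138 after young-fruit potassium, 9081 ± 241 after flowering-stage potassium and 8089 ± 301 in water. Without the leading member the sums were 1368 ± 15.2, 2615 ± 9.43 and 2738 ± 47.2 CPM. The flowering-stage sum was therefore above water with that gene and below water without it.

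Below this gene the read shares dropped steeply. The second member had 255, 258 and 277 CPM after young-fruit potassium, 569, 582 and 570 CPM after flowering-stage potassium, and 619, 581 and 647 CPM in water. Its young-fruit libraries were at 0.428 of the water mean, a deeper decline than that of the leading member. The third member had 81.3, 82.2 and 87.3 CPM after young-fruit potassium, 170, 147 and 174 CPM after flowering-stage potassium, and 175, 193 and 194 CPM in water. The fourth had 60.7, 70.3 and 62.7 CPM after young-fruit potassium, 134, 136 and 129 CPM after flowering-stage potassium, and 157, 172 and 144 CPM in water. In these last 2 genes all 3 flowering-stage libraries were below all 3 water libraries, with the young-fruit libraries lower again.

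The members ranked 5 and 6 were alike in their levels. The fifth had 85.1, 77.0 and 82.6 CPM after young-fruit potassium, 134, 136 and 130 CPM after flowering-stage potassium, and 137, 134 and 155 CPM in water. The sixth had 82.6, 72.3 and 77.5 CPM after young-fruit potassium, 122, 129 and 130 CPM after flowering-stage potassium, and 135, 133 and 131 CPM in water. The seventh member differed from its neighbours in being higher after flowering-stage potassium than in water. It had 75.7, 71.1 and 75.4 CPM after young-fruit potassium, 159, 156 and 150 CPM after flowering-stage potassium, and 124, 122 and 130 CPM in water, and its 3 groups did not overlap.

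**Figure D4:**
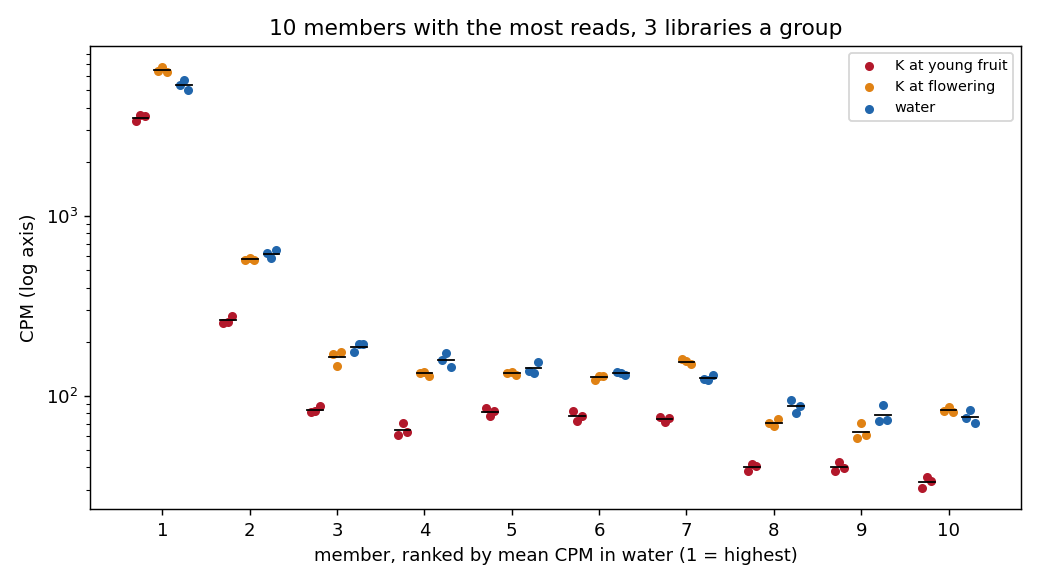
CPM on a log axis for the 10 members with most reads in water, with 1 point per library, 3 libraries a group and a bar at each group mean. Young-fruit potassium (red) is lowest in all 10; flowering-stage potassium (orange) lies above water (blue) in the members ranked 1, 7 and 10 by mean and below it in the others.

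Among the members with fewer reads, several of the deepest declines were in genes whose identifiers have the other prefix of the table. The member second in depth of decline against water had 2.62, 1.54 and 1.49 CPM after young-fruit potassium, 2.62, 5.84 and 7.23 CPM after flowering-stage potassium, and 3.07, 6.51 and 5.93 CPM in water. Flowering replicate 1 stood level with young-fruit replicate 1 in this gene, separated by less than the printed digits. The fourth had 2.74, 2.70 and 2.60 CPM after young-fruit potassium, 7.39, 4.93 and 8.0 CPM after flowering-stage potassium, and 6.93, 7.88 and 6.96 CPM in water, with young-fruit libraries that were nearly equal. The seventh in depth had 4.55, 3.60 and 4.15 CPM after young-fruit potassium, 10.0, 12.3 and 14.7 CPM after flowering-stage potassium, and 8.80, 12.7 and 10.6 CPM in water. At 0.333 of the flowering-stage mean it had the lowest such ratio of all 79 genes.

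The fifth and sixth in depth carried the prefix Vadar. The fifth had 4.61, 3.54 and 3.22 CPM after young-fruit potassium, 8.18, 8.38 and 8.38 CPM after flowering-stage potassium, and 10.4, 9.56 and 10.5 CPM in water. All 3 groups were apart from each other, with flowering between. The sixth had 3.74, 2.38 and 1.98 CPM after young-fruit potassium, 7.63, 6.10 and 5.89 CPM after flowering-stage potassium, and 8.14, 6.96 and 6.48 CPM in water, and its flowering-stage and water libraries overlapped. The ninth, with the other prefix and more reads, had 9.35, 8.56 and 8.54 CPM after young-fruit potassium, 23.5, 27.1 and 24.6 CPM after flowering-stage potassium, and 20.9, 24.2 and 21.9 CPM in water. Its flowering-stage libraries were on average the highest of the 3 groups.

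Potassium at flowering left most members where the test could not separate them from water, but not all. The fit called 6 members lower and 2 higher after flowering-stage potassium than in water, 7.59% and 2.53% of the set, beside 24.4% and 24.3% of all genes tested (without any scaling beyond library size, 4846 genes higher and 7719 lower in place of 6263 and 6272). The band of 0.8 to 1/0.8 keeps larger changes out of the set, so the difference from the background is fixed by the rule. The 6 lower members became 19 under scaling by library size alone and 3 without flowering replicate 2, and the 2 higher became 4 without that library or without water replicate 3. By mean, 52 members were below water after flowering-stage potassium and 27 above, and 43 were within 0.9 to 1/0.9 of it. The median ratio of flowering-stage potassium to water was 0.944 in the members. It was 1.03 over the 7373 genes with at least 5 CPM in water and a ratio within the band. Genes below and above water were not counted among those 7373, and the difference was not tested. The 6 called lower were thus below water at both timings, against the description of the set as lowered at young fruit alone. Without overlap of libraries, 12 members were lower and 5 higher at flowering than in water, beside 27.6% and 28.2% of genes tested. The 2 called higher were the members ranked 1 and 7, with log2 fold changes of 0.26 ± 0.04 and 0.29 ± 0.05 (SE). Those called lower included the members ranked 8 and 9, with log2 fold changes of -0.33 ± 0.07 and -0.33 ± 0.08.

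The calls at flowering were unevenly divided over classes of read number, among members as among all genes. Of the 7 members with at least 100 CPM in water 4 were called, of the 40 at 10 to 100 CPM 4, and of the 32 at 5 to 10 CPM 0. Of all genes tested in these classes 78.7, 62.2 and 47.7% were called in either direction, and the rule keeps the members below these shares. Among the 32 members of that lowest class edgeR gave 0 an unadjusted p under 0.05, and DESeq2 and limma also called 0 of them. The median standard error of the members' log2 fold change at flowering against water was 0.06, 0.12 and 0.17 in these 3 classes. The bounds of the rule are log2 values of about the same size as 2 such errors in the class with fewest reads, so a miss of the threshold there does not show that flowering-stage potassium and water were alike. The members' decline at young fruit was similar in the 3 classes, with median ratios to water of 0.58, 0.51 and 0.51 from the class with most reads to that with fewest.

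Since the rule used all 9 libraries, it was applied again without each library in turn and the chosen genes were read in the library left out. Without young-fruit replicate 1, 2 or 3 the rule chose 103, 94 and 92 genes, of which 72, 77 and 73 were among the 79. In the left-out library these genes had a median of 0.590, 0.543 and 0.550 of the mean of water, and 101, 93 and 90 of them were below it. The left-out value was at least 1.5-fold below both other group means for 59.2, 68.1 and 64.1% of them, while 2.53, 3.16 and 3.24% of all genes with at least 5 CPM in water met this limit in the same libraries. In each case the left-out library was somewhat higher than the libraries that chose the genes, by a median factor of 1.10, 1.05 and 1.03. Only the young-fruit value is independent here, since the water and flowering-stage libraries still served the choice.

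**Figure D5:**
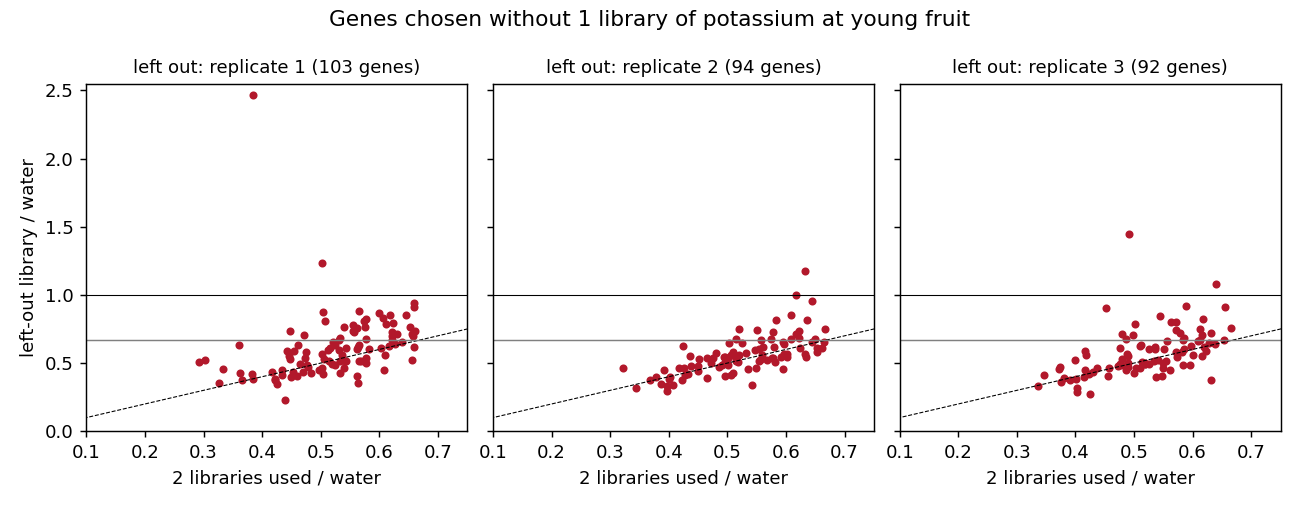
Each panel shows the genes chosen without 1 library of young-fruit potassium; the x axis is the mean of the 2 young-fruit libraries used over the water mean, the y axis the left-out library over the water mean, with the dashed line at equality, the grey line at 1.5-fold below water and the black line at the water mean. Most of the 103, 94 and 92 genes lie below the black line and somewhat above the dashed one, with a few far above it.

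The reverse reading was made for the other groups, and there only the left-out library is independent of the choice. Genes chosen without 1 water library had in that library a median of 1.89, 1.91 and 2.01 times the young-fruit mean for water replicates 1, 2 and 3, and 83 of 85, 79 of 80 and 76 of 77 lay above that mean. Chosen without 1 flowering-stage library, they had a median of 1.67, 1.74 and 1.74 times the young-fruit mean in flowering replicates 1, 2 and 3, with 99 of 104, 86 of 87 and 88 of 88 above it. Against the water mean these left-out flowering-stage libraries had medians of 0.875, 0.904 and 0.927, with 76, 61 and 56 genes below it. Their medians were 0.938, 0.951 and 0.964 of the mean of the other 2 flowering-stage libraries. At least 1.5-fold above the young-fruit mean were 90.6, 83.8 and 87% of them in the left-out water libraries and 65.4, 74.7 and 64.8% in the left-out flowering-stage libraries. Of all genes with at least 5 CPM in water 17.7, 17.4 and 18% met this limit in the water libraries and 3.4, 3.65 and 3.42% in the flowering-stage libraries. Of the 79 members, 43 were chosen again in all 9 of these selections and 69 in at least 7, and none in fewer than 5. Under all 3 other scalings 56 were chosen again, and 41 met both conditions. These selections shared all libraries, or all but 1, with the choice of the 79, so much of this repetition is built in.

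The set has neighbours just beyond its limits. At the limit of 5 CPM in water, members at 5.07 and 5.15 CPM were followed outside by genes at 4.96 and 4.87 CPM. For the ratio of young-fruit potassium to water the last members stood at 0.662 and 0.659 and the first genes outside at 0.670 and 0.671. For the ratio to flowering-stage potassium these values were 0.662 and 0.661 inside and 0.667 and 0.668 outside. For flowering-stage potassium over water, members at 0.804 and 0.805 faced genes at 0.7999 and 0.799 on the low side, and members at 1.23 and 1.23 faced genes at 1.32 and 1.34 on the high side. One of the genes just outside on the low side had a ratio of young-fruit potassium to water of 0.300, below that of every member.

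More genes were kept out by their level at flowering than were let in. Of genes that met the water minimum and both 1.5-fold limits, 202 were at or below 0.8 of water after flowering-stage potassium and 10 at or above 1/0.8, against 79 between. Read the other way, 7373 genes with at least 5 CPM in water were within the band at flowering, 184 of these were at least 1.5-fold below water after young-fruit potassium, and 79 were also 1.5-fold below flowering. The remaining 105 were lower than water after young-fruit potassium but within 1.5-fold of flowering.

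The same limits turned round gave sets of like size. With the timings exchanged, 110 genes were lower only after flowering-stage potassium, 103 of them without overlap of that group with the other 6 libraries and 36 with at least a 2-fold distance from both groups. With the direction exchanged, 88 genes were higher only after young-fruit potassium, of which 86 did not overlap and 21 differed at least 2-fold. The median ratio to water was 0.52 in the set lowered at flowering, beside 0.51 in the 79 genes lowered at young fruit, and 1.80 in the set raised at young fruit. Choosing sets on these same means makes a lack of overlap likely, and its share over all genes was not counted for these patterns. Nothing is therefore read from the counts without overlap. These sets share libraries with the 79 genes and no difference between them was tested.

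The members were spread over both kinds of identifier and over the numbering. Of the 79, 66 had the prefix Vadar and 13 the other prefix, 16.5% of the set beside 11.7% of the genes with at least 5 CPM in water, 15.5% of the set lowered only at flowering and 10.2% of the set raised only at young fruit. The 13 had a median ratio to water of 0.47, and somewhat fewer reads, with a median of 10.6 CPM in water beside 12.6 CPM in the 66. Their spread between libraries was wider than in the 66 after young-fruit potassium and in water, but not after flowering-stage potassium. The median coefficient of variation was 11.2% beside 8.17% in water, and 8.86% beside 9.93% after flowering-stage potassium. The median coefficient of variation after young-fruit potassium was 13.6%, beside 8.81% in the 66 and 9.42% over all 79. Over all genes with at least 5 CPM in water that value was 7.03%, and such genes also had more reads, with a median of 24.0 CPM in water beside 11.6 CPM in the members.

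Among the 66 members with numbered Vadar identifiers, 2 pairs lay within 5 numbers of each other. The members ranked 1 and 3 were 3 numbers apart and those ranked 9 and 34 were 1 apart. The first pair went opposite ways at flowering, where rank 1 was above and rank 3 below water. Whether neighbouring numbers mean neighbouring genes is not given in the sources used here, and reads of near-identical copies, which a polyploid genome can hold, may have been divided or merged in counting. The 49 other genes with an identifier 1 number away from a member and at least 5 CPM in water had median ratios of 0.99 to water and 0.98 to flowering-stage potassium after young-fruit potassium. Of these, 19 (38.8%) were called lower and 13 (26.5%) higher than water, beside 25.7% and 25.6% of all genes tested. Against flowering-stage potassium 10 (20.4%) were called lower and 5 (10.2%) higher, beside 9.24% and 10.4%. The shares over all genes tested also count genes under 5 CPM in water, so they are not a like background for these 49. No difference of these shares was tested.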

How the data were processed

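The authors deposited raw counts of each gene in 9 libraries, as whole numbers with no scaling. HISAT2 2.1.0 and StringTie 1.3.4d are named in the submitters' processing notes; how reads were counted, the strand setting, the build and the annotation are not given in the sources. Counts taken through an assembler can be rounded estimates. No column was left unmapped. The members were chosen on CPM from edgeR 4.0.16 (R 4.3.3) with TMM factors over all rows. Tests used edgeR's quasi-likelihood F test on all 9 libraries, 1 term per group, after filterByExpr (minimum count 10, minimum total 15), with Benjamini-Hochberg adjustment over 25728 genes and a threshold of 0.05. Standard errors are the log2 fold change over the square root of F. Fit and rule were tested on simulated data. The members and lists were chosen with earlier results of these data known. Identifiers are printed for the 2 Vadar members lowest against water and the 2 next lowest against flowering; others are given by rank. Alternatives were other scalings, filters and limits, DESeq2 1.42.0, limma 3.58.1, fits to 2 groups, the replicate number as a block, and each library left out. The rule applied without 1 library kept the factors of all 9.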

Additional observations from a re-analysis of the deposited data

Results flagged for a closer look

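The 79 members are listed here because edgeR's direct test between the potassium groups called each of them lower after potassium at young fruit than after potassium at flowering, beside 9.24% of all genes tested. The rule required a 1.5-fold distance between these same libraries, so this count follows from the choice of the members and nothing is read from it. Leaving out 1 library in turn left 72 to 79 of them called, beside 1786 to 2572 of all genes. DESeq2 called 77 of them, beside 2162 of all genes.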

How the results depend on the processing

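The number of members depends mainly on the limits of the rule. It was 280 with a water minimum of 1 CPM, 47 with 10 CPM, 21 with a 2-fold limit and 43 with a band of 0.9 to 1/0.9, and these differ by construction. Other scalings gave 80 to 88 genes, of which 63 to 79 were members, group medians gave 101 with 64 members, and leaving out 1 library gave 77 to 104. Calls at flowering were few and unstable: 6 members lower became 19 with scaling by library size alone, which moved the median of all genes to -0.13 (log2) from -0.02, and 3 to 7 with 1 library left out (3 without flowering replicate 2). The 2 higher became 5 with no filter on low counts and 2 to 4 with 1 library left out (4 without flowering replicate 2 or water replicate 3). Over all genes 5669 to 6442 were lower and 5740 to 6453 higher with 1 library left out. Under library size alone the log2 fold change of Vadar_g21034.v1.2 at flowering was -0.0025, reversed from 0.11 (edgeR adjusted p = 0.98 and 0.21; 0.041 without water replicate 2). TMM factors over all rows were 1.05 to 1.07 in the water libraries and 0.961 to 0.981 in the treated ones. Scaling by library size alone drops them, which by calculation lowers the treated groups against water. The cause of the other shifts was not tested. With the replicate number as a block, 79 members were lower at young fruit in both comparisons and 7 lower and 2 higher at flowering. Over all genes that fit called 6672 lower than water and 2576 lower than flowering-stage potassium at young fruit. At flowering it called 6317 lower and 6382 higher. Same-numbered libraries of different groups did not deviate together across genes (r from -0.04 to 0.05). This r could miss a link that touched few genes, so a pairing by number is not excluded. DESeq2 called 77 of the 79 lower than flowering-stage potassium, beside 2162 of all genes. Genes with fewest reads, at 22 counts or more, have the least certain ratios.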

Other observations

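Some genes were near-members that 1 library kept out, and 5 of them, chosen without a young-fruit library, were above the water mean in it. These were picked out after their values had been seen. Vadar_g15494.v1.2 had 43.9, 7.53 and 6.19 CPM after young-fruit potassium, 30.6, 6.10 and 29.9 CPM after flowering-stage potassium, and 21.3, 10.2 and 21.9 CPM in water. Its level split every group, with high libraries at least 2-fold above low ones. Vadar_g15496.v1.2, whose identifier is 2 numbers away, had 10.4, 9.85 and 29.8 CPM after young-fruit potassium, 32.3, 17.0 and 27.6 CPM after flowering-stage potassium, and 8.50, 27.0 and 26.3 CPM in water. It also varied at least 1.5-fold within each group, and in young-fruit replicates 1 and 3 and water replicates 1 and 2 it was high where the first gene was low and low where it was high. In the other 5 libraries they went together: both were low in young-fruit replicate 2 and flowering replicate 2, and both high in water replicate 3 and flowering replicates 1 and 3.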
